A study of Mus musculus with 8 samples.

Results

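The natriuretic peptide family of the mouse, with the peptide genes Nppa, Nppb and Nppc and the receptor genes Npr1, Npr2 and Npr3, was followed in RNA from embryonic tracheae. The 6 genes were taken by their symbols from the deposited tables, where each has a single entry, out of 37282 gene symbols, and all 8 libraries were used. Tracheae of control embryos and of mutants, which carry the genotype WlsShhCre, had been dissected at 2 stages of gestation, E11.5 and the later E13.5, with 2 libraries in each of the 4 groups. The labels give no further allele for the mutants and none for the controls, and no litter, pool or sequencing batch. In mice of this kind Wls, whose product carries Wnt proteins to the cell surface for secretion, is deleted by Cre under the control of Shh. In the trachea this Cre acts in the epithelium and leaves Wls in the mesenchyme. The comparison between genotypes asks what loss of epithelial Wls does to tracheal gene expression at each stage.

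Natriuretic peptides are secreted hormones that share a ring closed by a disulfide bond. Atrial natriuretic peptide (from Nppa) and B-type natriuretic peptide (from Nppb) are made chiefly by heart muscle and bind the receptor encoded by Npr1, whereas C-type natriuretic peptide (from Nppc) acts locally on the receptor encoded by Npr2. Both receptors are membrane guanylyl cyclases that make cyclic GMP (cGMP), which relaxes smooth muscle, and in growth plate cartilage the Nppc and Npr2 pair promotes growth. The receptor encoded by Npr3 has no cyclase domain and removes all these peptides from the extracellular space.

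The promoters of Nppa and Nppc are shown because these peptide genes moved in opposite directions at E13.5, as given below. Each window, from RefSeq on GRCm38.p6, runs from 250 bases before to 50 bases after the start of the gene, 5′ to 3′ along the gene. Capitals mark matches on either strand. The letters searched were TATAAA for the box that places the start of transcription, and CTTTGAT or else CTTTGAA for the TCF/LEF factors of Wnt signalling. Factors of heart muscle were searched as GATAA for the family of Gata4 and as AAGTG for Nkx2-5. Common promoter elements were searched as CCAAT and as GGGCGG, the latter bound by Sp1.
Nppa, chr4:148000472-148000771, plus strand: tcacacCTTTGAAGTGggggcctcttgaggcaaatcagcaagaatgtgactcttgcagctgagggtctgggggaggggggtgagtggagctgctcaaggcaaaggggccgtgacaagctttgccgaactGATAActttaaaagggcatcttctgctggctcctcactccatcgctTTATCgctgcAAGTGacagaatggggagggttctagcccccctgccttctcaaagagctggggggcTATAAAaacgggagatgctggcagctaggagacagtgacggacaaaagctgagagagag
Nppc, chr1:86670524-86670823, minus strand: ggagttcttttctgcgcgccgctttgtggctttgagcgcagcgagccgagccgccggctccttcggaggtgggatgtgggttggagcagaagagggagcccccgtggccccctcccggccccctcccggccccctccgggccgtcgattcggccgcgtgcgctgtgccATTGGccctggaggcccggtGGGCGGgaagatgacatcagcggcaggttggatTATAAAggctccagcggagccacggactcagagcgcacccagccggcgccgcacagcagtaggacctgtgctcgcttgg
TATAAA was found in both windows, beginning at -9 from the start in Nppa and at -29 in Nppc. It was in 13.6% of the 32851 promoter windows of this length. The Nppa window held 2 matches to GATAA, 2 to AAGTG and 1 to CTTTGAA, which overlaps the first AAGTG. Of all windows 25.4%, 46.4% and 5.14% held these letters. CTTTGAT, present in 3.73% of windows, was in neither. The Nppc window held 1 match to CCAAT on the opposite strand and 1 to GGGCGG, letters present in 37.4% and 35.7% of windows. The window of Nppb, which had almost no counts, is not shown and held TATAAA and 2 matches to GATAA. A match is a description of the letters, not evidence of binding.

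Total estimated counts per library ranged from 9898300 to 11901835 in 6 libraries and were 18475686 and 16760832 in the E13.5 mutants. Levels are given as CPM, counts relative to the scaled library size (TMM), and where genes are compared with each other as the deposited RPKM, which also divides by the length of the gene model. Wls itself fell in the mutants, from 160 ± 6.67 to 114 ± 6.26 CPM at E11.5 and from 163 ± 7.02 to 72.8 ± 1.54 CPM at E13.5 (SD, n = 2 each), with edgeR adjusted p of 0.00298 and 1.4e-07. Of markers of the labelled tissue, Nkx2-1, a transcription factor of respiratory epithelium, was at 52.2 to 93.3 CPM, and the cartilage regulator Sox9 at 59.7 to 163 CPM. The E13.5 mutant libraries stood apart from the 6 others, with a summed level of 20 genes of adult intestine of 42.0 and 53.7 CPM against 116 to 165 CPM. Xist, a transcript of female cells, had lower values in mutants than in controls of their stage. At E11.5 the controls had 1168 and 1847 CPM of it and the mutants 846 and 526. The E13.5 controls had 2673 and 1841 CPM and the mutants 6.34 and 1224. Ddx3y, a gene of the Y chromosome, went the other way. It was at 43.2 and 32.8 CPM in E11.5 controls and 52.2 and 61.8 CPM in E11.5 mutants. At E13.5 it was at 19.8 and 48.2 CPM in controls and 106 and 66.8 CPM in mutants. Of 5 sex-linked genes tested at E13.5, 4 lay above 0 and 1 below, and 0 were called. Values of whole tissue cannot tell fewer cells of a type from less RNA per cell. The labels do not say whether replicates came from separate animals or pools, so p-values measure the spread between these libraries.

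At E13.5 the mutant tracheae had 7.94 times as much Nppc transcript as controls and about 0.0736 times as much Nppa, and Npr1 was lower. The E13.5 mutants also differed from their controls in depth, intestinal markers, Xist and Ddx3y, as given above. Those differences coincide with genotype at E13.5, so the effect of Wls loss cannot be told apart from them. The threshold for a call was an adjusted p of 0.05 in edgeR's quasi-likelihood test, with Benjamini-Hochberg adjustment over the 14903 genes tested. At E13.5 this held for Nppc, Nppa and Npr1, 1 higher and 2 lower, against a background of 11.8% of all genes tested called in either direction, 5.97% higher and 5.82% lower. At E11.5 edgeR called 0 of the 5 tested members, 0 had an unadjusted p under 0.05, and DESeq2 and limma-voom called 0. The background there was 0.362%, of which 0.0738% higher and 0.289% lower. Nppb had too few counts to be tested. Nppa and Nppc passed the low-count filter solely through the group in which each is high, so their number among the calls is no evidence about the family.

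Nppc, the gene of the local ligand, was nearly absent at E11.5 and low in E13.5 controls. Estimated counts were 3 and 0 in the E11.5 controls, 1 and 2 in the E11.5 mutants, and 8.06 and 6 in the E13.5 controls. In the E13.5 mutants they were 111 and 77.7. These correspond to 0.749 and 0.562 CPM in E13.5 controls against 5.96 and 4.56 CPM in E13.5 mutants. Both E13.5 mutant libraries thus stood clear of the 6 others. The log2 difference at E13.5 was 2.99 (SE 0.42, adjusted p = 3.5e-04), and in the 15 alternative fits it lay between 2.78 and 3.21 with an adjusted p of at most 0.00851. At E11.5 each library held 3 counts or fewer, the floor used here. The ratio of mutant to control counts was 1.06 at E11.5, with a 95% counting interval from 0.142 to 7.94, and 8.07 at E13.5, with an interval from 4.69 to 15.1.

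Nppa, the gene of the atrial peptide, showed the opposite pattern at E13.5. Its levels were 4.87 and 5.998 CPM in the E13.5 controls and 0.591 and 0.176 CPM in the E13.5 mutants. At E11.5 they were 0.276 and 0.0858 CPM in controls and 0.305 and 0.0882 CPM in mutants, which is 1 to 3 rounded counts. The E13.5 controls were thus the high group, and of the E13.5 mutants 1 library lay within the range of E11.5 and 1 above it. The log2 difference at E13.5 was -3.76 (SE 0.45, adjusted p = 9.8e-05), and it lay between -4.87 and -3.18 in the 15 alternative fits, with an adjusted p of at most 0.00198. An antisense gene, Gm13054, overlaps Nppa in the GENCODE annotation, and because the library kit does not mark strand its reads cannot be told from those of Nppa.

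The summed level of heart muscle markers was also lower in the E13.5 mutants than in controls on average, with ranges that overlapped. The summed level of 18 such genes was 2217 and 1027 CPM in the E13.5 controls and 1046 and 365 CPM in the mutants. The 3 most abundant at E13.5 were Actc1, a striated muscle actin, at 433 and 246 against 332.5 and 137 CPM, the cardiac myosin gene Myh6 at 526 and 218 against 127 and 20.2 CPM, and the atrial light chain gene Myl7 at 283 and 119 against 60.98 and 14.3 CPM. Of 16 list members tested Pln, a calcium pump regulator, was higher (log2 difference 1.5004), the transcription factor gene Nkx2-5 was lower (-1.43) and 14 did not pass, with a median log2 difference of -1.39 beside -0.00 for all genes. Of the 18 genes 0 had no count in the E13.5 controls and 1 had none in each mutant library. Skeletal muscle also uses some of these genes, and its own list of 11 genes in the tables summed to 106 and 117 CPM in the E13.5 controls and 513 and 198 CPM in the mutants. Mutant replicate 1 exceeded control replicate 2 in Actc1, in Ttn (176 against 79.8 CPM) and in Actn2 (63.3 against 23.9 CPM). It was lower than that library in Myh6, Myl7, Mybpc3 (16.9 against 36.3 CPM), Csrp3 (11.4 against 20.4 CPM) and Tbx20 (11.4 against 24.8 CPM). The part of heart cells in the Nppa difference was not tested.

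Nppb, the gene of the B-type peptide that lies beside Nppa on chromosome 4, was at or under the floor of 3 counts in all 8 libraries. It had 0 and 2 counts in the E11.5 controls, 2 and 0 in the E11.5 mutants, 0 and 1 in the E13.5 controls and 0 and 1 in the E13.5 mutants. The floor corresponds to 0.161 to 0.305 CPM per library, and no fold change is given. Its neighbour Nppa reached 5.998 CPM in a library in which Nppb had 1 count.

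**Figure D1:**
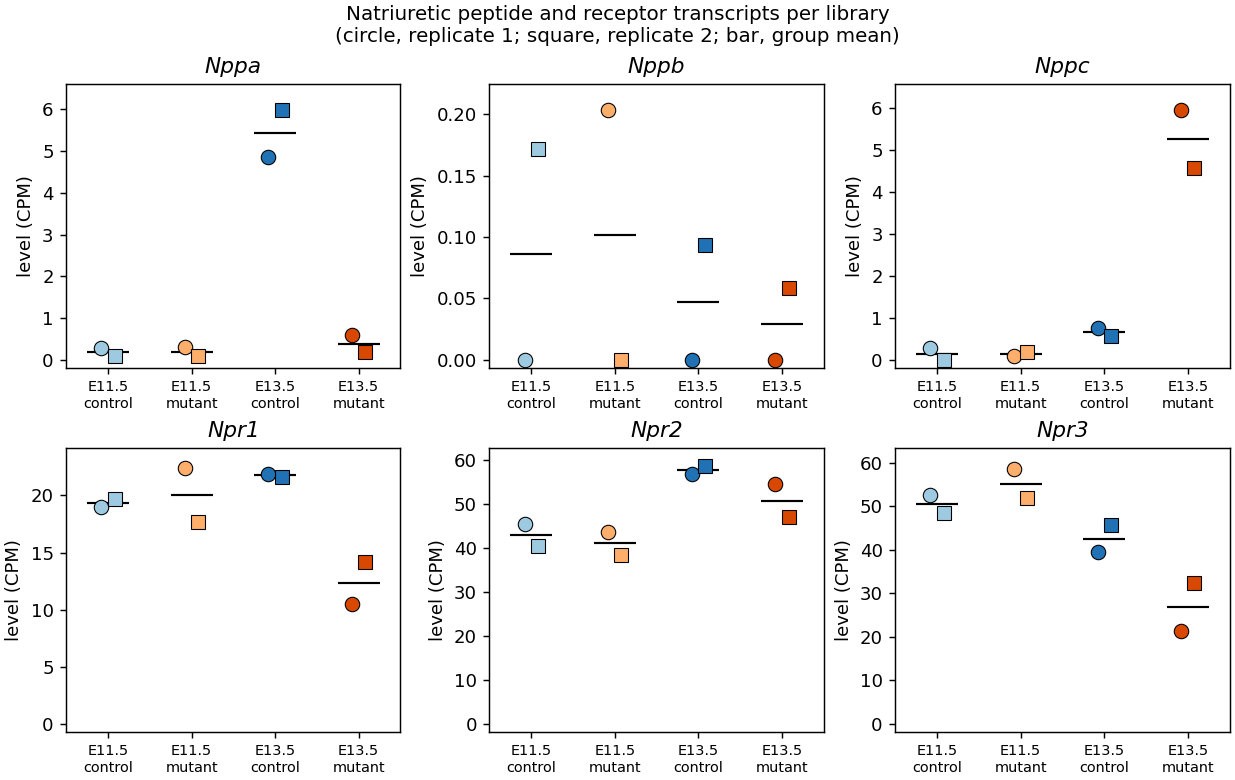
Level of each family member (vertical axes, CPM, each with its own range) in the 4 groups (horizontal axis), with 1 point per library and a bar at the group mean. Nppc stands high in the E13.5 mutants at 5.96 and 4.56 CPM, Nppa in the E13.5 controls at 4.87 and 5.998 CPM, and Nppb stays at 2 counts or fewer.

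Among the receptors, Npr1, the cyclase that binds the atrial and B-type peptides, was lower in E13.5 mutants. Its E13.5 levels were 21.9 and 21.6 CPM in controls and 10.53 and 14.2 CPM in mutants, with no overlap. At E11.5 it was 19.0 and 19.6 CPM in controls and 22.4 and 17.6 CPM in mutants, where the controls lay within the range of the mutants. Npr1 fell by 0.82 on the log2 scale at E13.5 (SE 0.15, adjusted p = 0.00274), and it passed in the 15 alternative fits with values between -1.04 and -0.62. The antisense gene Gm16048 overlaps Npr1, with the same limit on strand.

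The summed level of endothelial markers was also lower in the same libraries. Npr1 is known in vascular cells. Its nearest profile over these same 8 libraries was Zeb2, followed by Tek, an endothelial receptor gene. The summed level of 17 endothelial markers was 692 and 796 CPM in the E13.5 controls and 518 and 564 CPM in the mutants, with 6 of 17 lower (Tie1, Tek, Eng, Egfl7, Cldn5 and Sox18), 0 higher and a median log2 difference of -0.47. The most abundant of them, Cdh5, was at 110 and 130 CPM in controls and 84.3 and 94.3 CPM in mutants. All 17 were detected in all 8 libraries. Endothelium was not alone in this. Summed markers of cartilage, erythroid cells, mesothelium, immune cells and adult intestine were also lower in both E13.5 mutants than in both controls. Those of epithelium, smooth muscle and skeletal muscle were higher. Summed markers of neurons and glia were higher too. Of these 14 genes 8 lay below 0, with a median log2 difference of -0.11, and 4 were called higher. The part of endothelial or other cells in the Npr1 difference was not tested.

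Npr2, the cyclase that binds the C-type peptide, was the most abundant receptor per length and was not called between genotypes at either stage. Its levels were 45.3 and 40.5 CPM in E11.5 controls, 43.7 and 38.4 CPM in E11.5 mutants, 56.8 and 58.7 CPM in E13.5 controls and 54.5 and 47.0 CPM in E13.5 mutants. The genotypes overlapped at E11.5, while at E13.5 both mutants lay below both controls. The log2 difference was -0.07 at E11.5 (95% interval -0.28 to 0.14) and -0.19 at E13.5 (-0.38 to 0.01, adjusted p = 0.239). The ligand gene Nppc thus rose in E13.5 mutants while the fitted change of its receptor gene lay within these bounds. Reads of the antisense gene Gm12473 cannot be told from those of Npr2.

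Npr3, the clearance receptor, had lower values in the E13.5 mutants that did not pass the test. At E13.5 controls had 39.4 and 45.6 CPM and mutants 21.3 and 32.3 CPM, without overlap but with the widest spread between mutant replicates among the receptors. At E11.5 it was 52.6 and 48.5 CPM in controls and 58.4 and 51.9 CPM in mutants. The log2 difference at E13.5 was -0.67 (SE 0.20, adjusted p = 0.0865), and 4 of 15 alternative fits called it. The adjusted p was 0.00201 with DESeq2 and 0.0268 with edgeR's non-robust option. Leaving out E13.5 mutant replicate 1 gave -0.40 (edgeR adjusted p = 0.0496), and leaving out replicate 2 gave -0.996 (edgeR adjusted p = 9.2e-05). Gm5144, a non-coding gene on the opposite strand, overlaps Npr3 in the annotation.

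**Figure D2:**
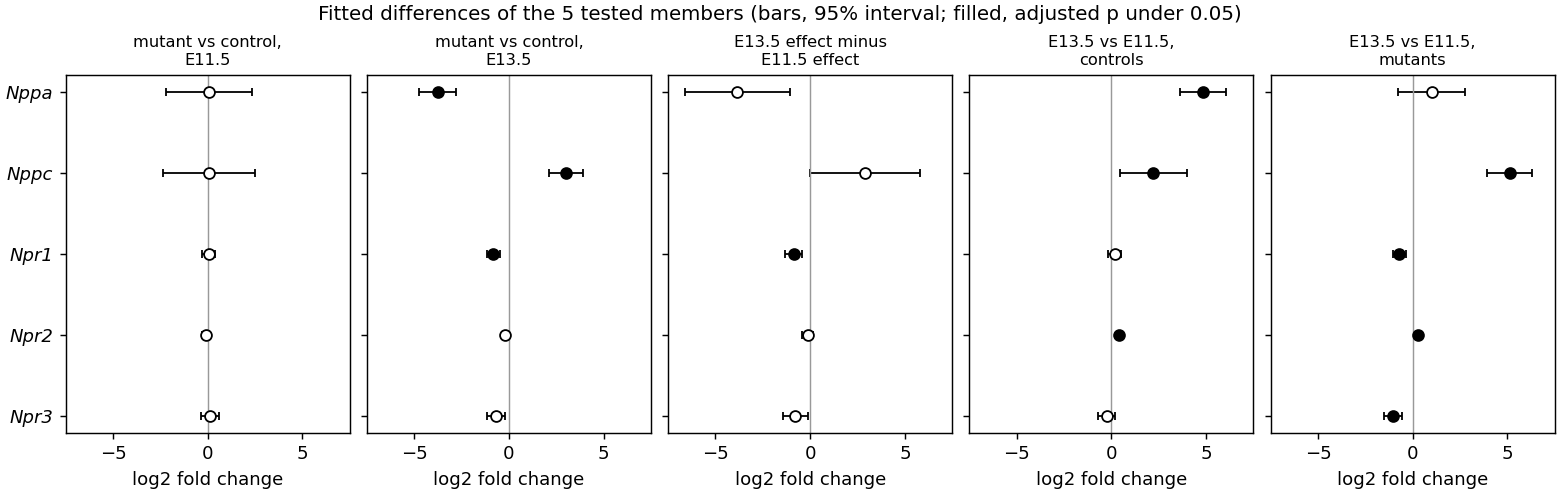
Fitted log2 differences (horizontal axes) of the 5 tested members (vertical axis) in 5 comparisons, with 95% intervals, filled where the adjusted p was under 0.05. At E13.5 Nppa lies at -3.76 and Nppc at 2.99, and at E11.5 the intervals of all 5 cross 0.

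The make-up of the family per length is given as a description, with no test. Summed over the 3 peptide genes, RPKM was 6.62 and 7.95 in E13.5 controls and 6.50 and 4.74 in E13.5 mutants, whereas the E11.5 libraries had 0.273 to 0.773. Nppc made up 11.04% and 6.82% of the peptide sum in E13.5 controls and 89.0% and 93.8% in mutants. The ligand RNA thus came mostly from Nppa in the controls and mostly from Nppc in the mutants, and both mutant sums lay below both control sums. Npr2 RPKM was 20.3 and 28.2 times that of Nppc in E13.5 controls and 2.46 and 2.79 times in mutants.

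Per length, Npr2 was the highest receptor in all 8 libraries, at 10.4 to 15.3 RPKM. At E11.5 Npr3 followed with 6.85 to 8.38 RPKM and Npr1 with 4.302 to 5.47 RPKM, and the ranges did not overlap. In E13.5 controls Npr3 at 5.74 and 6.62 lay just above Npr1 at 5.43 and 5.35 RPKM, and in E13.5 mutants their ranges overlapped, with 3.09 and 4.76 for Npr3 and 2.61 and 3.55 for Npr1. The share of Npr2 in the receptor sum was 46.1% to 50.3% at E11.5, 57.1% and 56.1% in E13.5 controls, and 71.4% and 59.9% in E13.5 mutants. In the mutants the higher share came with lower Npr1 and Npr3, since Npr2 itself was 14.2 and 12.4 RPKM against 14.9 and 15.3 in controls.

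**Figure D3:**
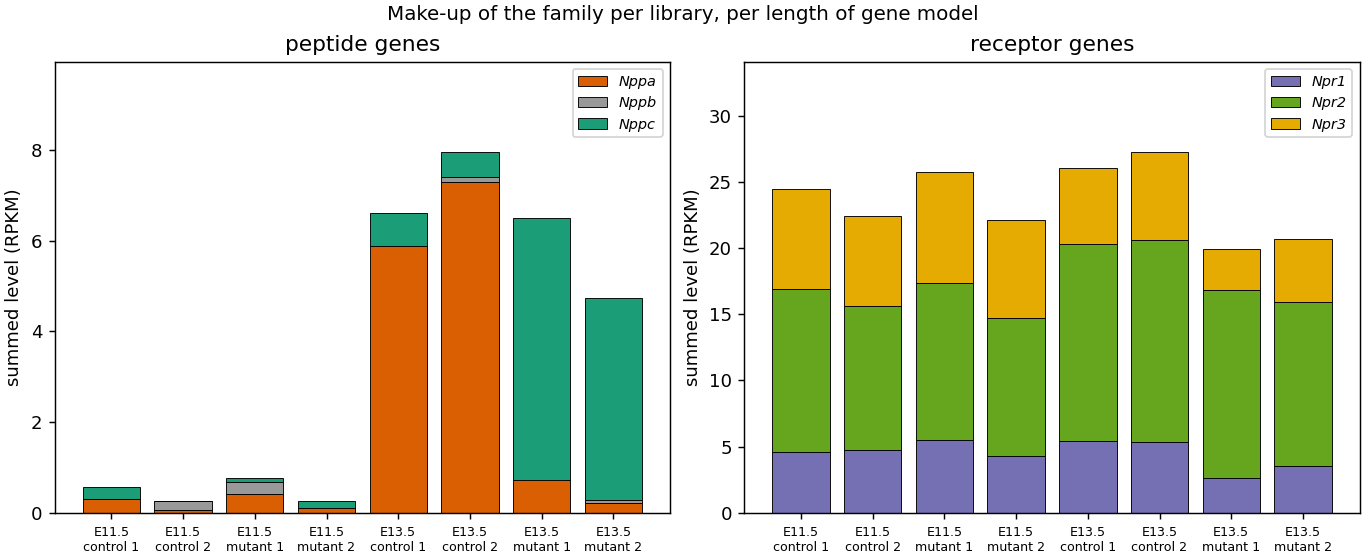
Summed RPKM (vertical axes) of the 3 peptide genes (left) and of the 3 receptor genes (right) in each library (horizontal axis), divided by gene. Nppc forms 89.0% and 93.8% of the peptide sum in the E13.5 mutants, and Npr2 is the largest receptor share in each library.

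Between E11.5 and E13.5 the controls gained Nppa and the mutants gained Nppc. In controls, where 42.4% of all genes tested were called, 21.4% higher and 21% lower, Nppa, Nppc and Npr2 were higher at E13.5. In mutants, where the background was 48.4%, 23.9% higher and 24.6% lower, Nppc and Npr2 were higher and Npr1 and Npr3 lower. Counts of members this close to the background say little about the family. The 2 stages come from tables counted separately, so that stage differences can include a change of gene models.

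Nppa in controls rose from 4 rounded counts over both E11.5 libraries to 116, a ratio of 30.6 per scaled read with a 95% counting interval from 11.6 to 114 (adjusted p = 2.3e-05 in edgeR). Summed heart markers in the same controls went from 108 and 158 CPM to the levels given above. In mutants Nppa went from 4 to 14 counts, a ratio of 2.07 (0.652 to 8.66, adjusted p = 0.337). Nppc in mutants rose from 3 to 189 counts, a ratio of 37.3 (12.6 to 183, adjusted p = 7.8e-06). In controls it went from 3 to 14 counts, a ratio of 4.92 (1.37 to 26.7, adjusted p = 0.0428), a call that 7 of 14 alternative fits did not make. Its adjusted p was 0.263 without E11.5 control replicate 2, 0.0504 and 0.05102 without E11.5 mutant replicates 1 and 2, 0.164 and 0.0711 without E13.5 control replicates 1 and 2, 0.0963 with DESeq2 and 0.0527 in edgeR's non-robust fit. Without E11.5 control replicate 1, which holds all 3 counts of that group, the fitted log2 difference moved from 2.21 to 6.09, which depends on a group at 0 and is no estimate of size.

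Npr2 rose with stage by 0.43 on the log2 scale in controls (SE 0.09, adjusted p = 0.00274) and by 0.31 in mutants (SE 0.09, adjusted p = 0.0149). The gene model of Npr2 measured 3656 bases at E11.5 and 3863 at E13.5, 5.66% more, while those of the 5 other members had the same length in both. The ratio of E13.5 to E11.5 means in controls was 1.35 in CPM and 1.30 in RPKM, which divides by these lengths. In mutants the ratios were 1.24 and 1.19, and the call there was lost with DESeq2 (adjusted p = 0.0549), without E11.5 mutant replicate 2 (0.157) and without E13.5 mutant replicate 1 (0.1497).

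Npr3 and Npr1 fell with stage in mutants, Npr3 by 1.04 (SE 0.19, adjusted p = 0.00463) and Npr1 by 0.70 (SE 0.15, adjusted p = 0.00202). In controls the values were -0.25 for Npr3 (95% interval -0.72 to 0.22, adjusted p = 0.352, with 2 of 14 alternative fits calling it, at 0.0441 and 0.0433 without E13.5 mutant replicate 1 or 2) and 0.17 for Npr1 (-0.15 to 0.50, adjusted p = 0.381). Whether the genotype effect itself differed between the stages was tested by the interaction, for which 3.33% of all genes were called, 1.63% higher and 1.7% lower. Npr1 passed with -0.87 (SE 0.21, adjusted p = 0.0422), a call that 9 of the 14 alternative fits did not make. Nppa at -3.85 (SE 1.28, adjusted p = 0.143), Npr3 at -0.79 (SE 0.27, adjusted p = 0.234) and Nppc at 2.91 (SE 1.35, adjusted p = 0.317) did not pass. For Nppc and Nppa the E11.5 side of this test rests on 3 or 4 rounded counts per group. The Npr3 interaction was called by DESeq2 (adjusted p = 0.0343) and without E13.5 mutant replicate 2 (-1.12, edgeR adjusted p = 6.2e-04).

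The genes nearest to each member in profile were found by the root-mean-square difference of centred log2 CPM over the 8 libraries, of which smaller is nearer. For Nppa they were Iyd, an enzyme gene of the thyroid (0.51), Mybphl, a heart muscle gene (0.65), and Bcan (0.66). Iyd averaged 2.25 CPM in E13.5 controls and 0.0561 CPM in E13.5 mutants, and Mybphl 4.96 and 0.730 CPM. For Nppc they were Aldh1a1, a retinoic acid enzyme gene (0.44), Kcnd3, a potassium channel gene (0.51), and Elf5, an epithelial transcription factor gene (0.52). Aldh1a1 averaged 12.1 CPM in E13.5 controls and 75.5 CPM in mutants, and Elf5 4.26 and 12.4 CPM.

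For Npr1 the nearest were Zeb2 (0.08), Tek (0.08) and Icam2 (0.09), the latter 2 both endothelial genes. Tek averaged 43.7 CPM in E13.5 controls and 25.4 CPM in mutants. For Npr2 they were Uggt2, 1110067D22Rik and Adamts10, at 0.04 to 0.06, and for Npr3 Lrmp, BC020535 and Hmha1, at 0.09 to 0.11. The receptors vary less than the ligands, so their smaller distances are not comparable with those of Nppa and Nppc. Their own root-mean-square spread about the mean was 0.21 to 0.44, against 1.75 and 1.79 for Nppa and Nppc.

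Beside Nppc, summed markers of epithelium, of smooth muscle and of skeletal muscle were also higher in the E13.5 mutants. The 15 epithelial genes summed to 997 and 1042 CPM in controls and 1542 and 1611 CPM in mutants, with 12 of 15 higher and a median of 0.71. The 15 smooth muscle genes summed to 2215 and 2438 CPM against 4019 and 4689 CPM, with 9 of 15 higher and a median of 0.83. Of the skeletal muscle list, whose sums are given above, 2 of 10 tested were higher (Tnnc2 and Tnni2), with a median of 1.77. Cartilage, a site of Nppc action later in life, went the other way, with 18 genes at 2163 and 2246 against 1389 and 884 CPM, 7 of 16 tested lower and a median of -1.01. Their part in the Nppc difference was not tested.

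**Figure D4:**
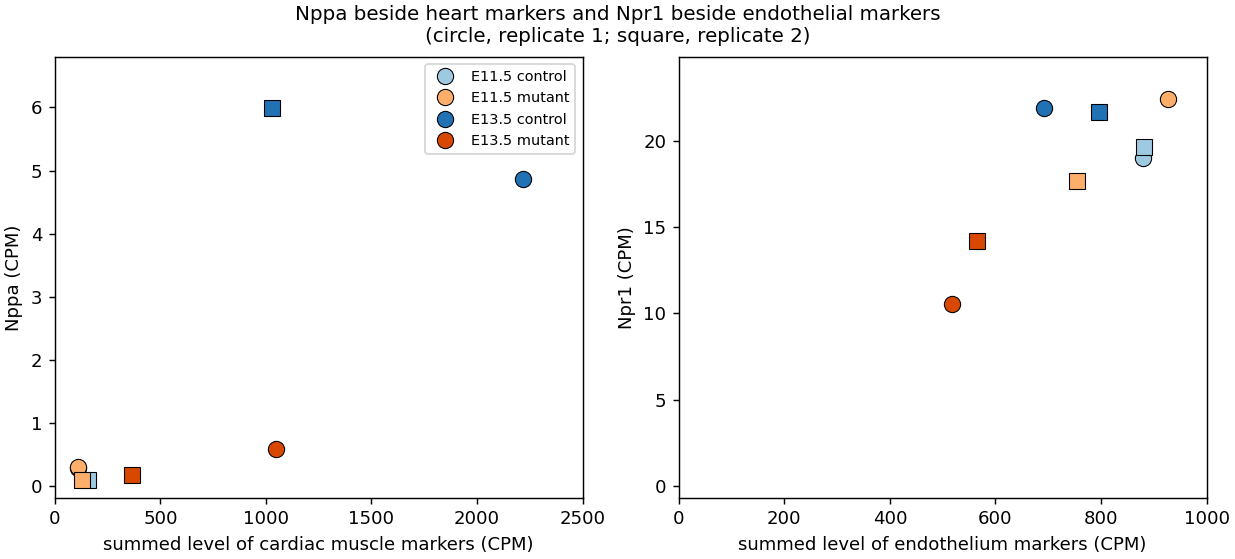
Nppa against the summed level of 18 heart muscle markers (left) and Npr1 against that of 17 endothelial markers (right), both axes in CPM, 1 point per library. The E13.5 controls lie at 2217 and 1027 CPM of heart markers and the mutants at 1046 and 365 CPM, a sum that includes genes shared with skeletal muscle, such as Actc1 and Ttn.

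Genes that process or clear these peptides, or that help make, relay or break down cGMP, were followed as a list of 34, of which 32 were tested. At E13.5, 10 of the 32 were higher in mutants and 3 lower, that is 40.6% called beside the 11.8% of all genes, and the 19 others did not pass. Sources of cGMP other than the peptide receptors made up 8 of the 32 tested, with 1 of the higher and 2 of the lower genes. The list was chosen with earlier results of these data known. Its shares in this and the other comparisons are thus a description and no test of the pathway. At E11.5 edgeR called 0 of the 32, and 4 of 15 alternative fits called 1, namely those with no low-count filter, with the 4 libraries of the stage alone, and without either E13.5 mutant replicate. Without E13.5 control replicate 1 the E13.5 count was 8, and over all 15 alternative fits it was 8 to 13.

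Of the genes that process or clear the peptides, Mme, which encodes neprilysin, the protease that degrades natriuretic peptides, rose by 1.26 at E13.5 (SE 0.18, adjusted p = 0.00217). Its levels were 19.8 and 19.5 CPM in controls and 56.3 and 37.4 CPM in mutants, and with the 4 libraries of the stage alone its adjusted p was 0.0555. Corin, the protease that activates the atrial peptide in the heart, was at 21.7 and 10.7 CPM in controls and 7.90 and 5.68 CPM in mutants (-1.25, SE 0.39, adjusted p = 0.101). Furin, which cleaves precursors of the B-type and C-type peptides, was at -0.10 (adjusted p = 0.518). Ostn, the gene of a further Npr3 ligand, was not tested, with at most 0.0537 CPM in a library.

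Other sources of cGMP were divided. Nos3, the endothelial nitric oxide synthase gene, whose product activates soluble guanylyl cyclase, fell by 1.12 (SE 0.16, adjusted p = 3.6e-04), from 14.7 and 14.3 CPM to 6.72 and 6.67 CPM. Of the 17 endothelial markers 6 were lower in the same comparison, and their part in the Nos3 difference was not tested. Nos1, the neuronal synthase gene, rose by 1.37 (adjusted p = 0.0223), and Gucy2c, the guanylyl cyclase gene of intestinal epithelium, fell by 3.02 (adjusted p = 0.00610). The summed intestinal markers were lower in the same libraries, as given above, and their part in the Gucy2c difference was not tested. The soluble cyclase subunit genes Gucy1a3 (-0.11) and Gucy1b3 (0.07) were not called.

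Among the effectors, the cGMP-dependent kinase genes were not called. Prkg1 was at -0.19 (SE 0.10, adjusted p = 0.274) with 45.2 and 41.4 CPM in controls and 38.4 and 37.4 CPM in mutants, and Prkg2 was at -0.19 (SE 0.32, adjusted p = 0.777). Mrvi1, a substrate of the kinase in smooth muscle, rose by 1.40 (SE 0.13, adjusted p = 1.7e-05), from 18.6 and 20.8 CPM to 48.3 and 55.6 CPM. Smooth muscle markers were higher in the same libraries, as given above, and their part in the changes of Mrvi1 and of the phosphodiesterases was not tested. Vasp, a further kinase substrate, rose by 0.23 and Ppp1r12a, a myosin phosphatase subunit, by 0.24.

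The largest group of calls was in the list of phosphodiesterase genes, most of which encode enzymes that break cyclic nucleotides down. Of these genes 5 of 10 were higher and 1 lower, in libraries in which 9 of 15 smooth muscle markers were also higher. Pde5a, whose enzyme is specific for cGMP, rose by 1.63 (SE 0.11, adjusted p = 3.6e-05), from 114 and 120 CPM to 318 and 403 CPM. The calmodulin-dependent Pde1b rose by 1.76 (adjusted p = 2.6e-06), Pde1c by 1.23 and Pde1a by 0.38, and Pde9a, also specific for cGMP, by 0.45. Pde3a fell by 0.51. Nos3, Mrvi1, Pde1b, Pde1c and Pde5a were called in all 15 alternative fits, and the 8 others were not called in at least 1 of them. Vasp and Nos1 lost their call with DESeq2 (adjusted p = 0.123 and 0.364), as did Pde1a (0.116) and Pde9a (0.0592), and limma-voom did not call Pde1a (0.0633) or Pde3a (0.0659). Leaving out E13.5 control replicate 1 ended the calls of Nos1, Vasp, Ppp1r12a, Pde1a and Pde3a (edgeR adjusted p 0.0789 to 0.245), and leaving out control replicate 2 those of Nos1, Vasp, Pde1a, Pde3a and Pde9a (0.0826 to 0.243). Leaving out E13.5 mutant replicate 1 ended those of Gucy2c (0.0579), Vasp (0.115) and Pde3a (0.197), and leaving out replicate 2 those of Nos1, Vasp, Ppp1r12a, Pde1a and Pde9a (0.0649 to 0.276). Pde1a, the weakest of these calls (adjusted p = 0.0477), also lost it without either E11.5 control (0.0770 and 0.0773).

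**Figure D5:**
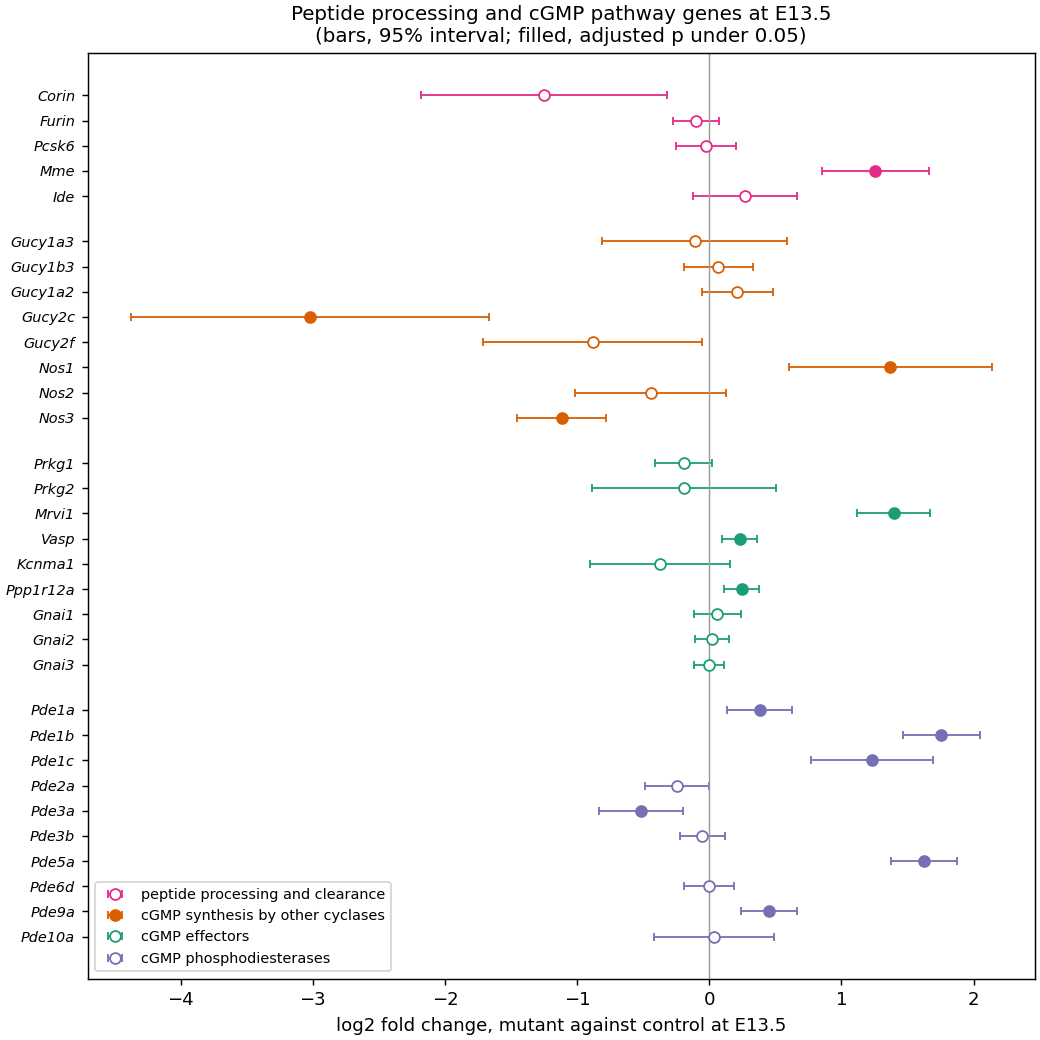
Log2 difference between mutants and controls at E13.5 (horizontal axis) for the 32 tested genes of peptide processing and cGMP signalling (vertical axis, by list), with 95% intervals, filled where the adjusted p was under 0.05. Pde1b at 1.76, Pde5a at 1.63 and Mrvi1 at 1.40 lie highest among the filled points and Gucy2c at -3.02 lowest.

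With stage, 19 of the 32 pathway genes were called in controls, 10 higher and 9 lower, that is 59.4% beside 42.4% of all genes. In mutants 21 were called, 13 higher and 8 lower, that is 65.6% beside 48.4% of all genes. Without E11.5 control replicate 2 or E13.5 control replicate 1 the count in controls was 12. In controls Nos1 (3.33), Kcnma1 (1.37), Pde1c (1.32), Pcsk6 (1.00), Gnai1 (0.94), Pde1a (0.84), Pde1b (0.84), Mme (0.58), Mrvi1 (0.38) and Pde9a (0.30) were higher at E13.5. Gucy1a3 (-0.97), Pde3a (-0.89), Pde5a (-0.75), Gucy1b3 (-0.59), Pde3b (-0.54), Nos3 (-0.49), Furin (-0.40), Pde2a (-0.32) and Gnai2 (-0.22) were lower. Mme, Gucy1a3, Nos3, Mrvi1, Gnai2, Pde2a and Pde9a lost this call in at least 1 alternative fit and the 12 others did not.

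In mutants Pde5a moved the other way with stage, at 0.69 (SE 0.10, adjusted p = 7.3e-04). Its interaction was 1.44 (SE 0.15, adjusted p = 0.00161), so that the genotype effect on Pde5a differed between the stages. Pde1b (1.78) and Mrvi1 (1.39) also passed the interaction upward and Nos3 (-1.01) and Gucy2c (-3.47) downward. With Pde5a these were 5 of 32 tested, or 15.6% beside 3.33% of all genes. The calls of Mrvi1, Pde1b and Pde5a held in all 14 alternative fits. Nos3 lost its call without either E11.5 control, E11.5 mutant replicate 1 or either E13.5 control (adjusted p 0.05003 to 0.0925), and Gucy2c with DESeq2 (0.196) and without each library except E13.5 mutant replicate 2 (0.0701 to 0.117). The count of 5 became 3 without any of the 5 libraries that ended the Nos3 call. The other genes called with stage in mutants were Pde1b (2.62), Pde1c (2.26), Kcnma1 (2.19), Nos1 (2.04), Mrvi1 (1.77), Mme (1.42), Gnai1 (1.078), Pcsk6 (0.96), Pde9a (0.69), Pde1a (0.65), Ppp1r12a (0.34) and Vasp (0.22), which were higher, and Gucy2c (-3.39), Nos3 (-1.49), Pde3a (-1.46), Gucy1a3 (-1.31), Pde3b (-0.67), Gucy1b3 (-0.54), Pde2a (-0.51) and Gnai2 (-0.21), which were lower. Of the 21 calls 18 held in every alternative fit, with Gucy1a3, Vasp and Gnai2 the exceptions.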

How the data were processed

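RNA from trachea was sequenced in 8 Nextera XT libraries, per the labels' protocols. Each stage has a deposited table in which, per the file headers, every gene and library has a raw count and a density of reads. The authors deposited these as an estimated count per gene, since 76.3% to 82.6% of values above 0 were not whole. They were rounded here. The deposited densities behave as RPKM, by their relation to count, gene length and total. Per the submitters' processing notes, mm9 was the build and DESeq, Cufflinks 2.0.2, TopHat2 2.0.8 and Bowtie2 2.1.0 were used; the tool that produced the counts was not stated.

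Entries without a gene name (at most 0.0253% of counts) were left out and counts summed by symbol. A single edgeR 4.0.16 fit (R 4.3.3) held all 8 libraries with 1 mean per group, TMM scaling (factors 0.980 to 1.02), filterByExpr and robust quasi-likelihood dispersion, with 4 residual degrees of freedom and Benjamini-Hochberg adjustment. The common biological coefficient of variation came to 7.79%. No replicate pair agreed within sampling noise (chi-square per degree of freedom 3.32 to 8.13). Exact 95% counting intervals and the floor of 3 counts per library cover counting error only. The design had assumed whole counts. Alternatives were RLE scaling, omission of the low-count filter, DESeq2 1.42.0, limma-voom (limma 3.58.1), a non-robust fit, a replicate block, the 4 libraries of a stage alone, and each library left out. The fit was tested on simulated data in which changes were planted solely in genes of higher mean counts. That test does not cover genes with counts as low as those of Nppa and Nppc. Members, gene lists and tests were chosen with earlier results of these data known. The rule for names took the 6 members, Wls, the 3 nearest profiles of each tested member, every called pathway gene, Prkg1, Prkg2, Pde5a, Corin, Furin and Mme, and up to 3 abundant markers. Ostn, Pln, Nkx2-5, Ttn, Actn2, Mybpc3, Csrp3, Tbx20, Tnnc2, Tnni2, Tie1, Eng, Egfl7, Cldn5, Sox18, Sox9, Nkx2-1, Xist and Ddx3y were added after their values were seen. Promoters were found for all 6 members; protein sequences were not used here. The coding sequence of the peptides is not reported here.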

Additional observations from a re-analysis of the deposited data

Results flagged for a closer look

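The genotype effect on Npr1 differed between the stages in the main edgeR fit, a call that 9 of the 14 alternative fits did not make. Its log2 difference between mutants and controls was 0.05 at E11.5 and -0.82 at E13.5, and the interaction was -0.87 (SE 0.21, edgeR adjusted p = 0.0422). Both mutant libraries lay below both controls at E13.5, and at E11.5 1 mutant library lay above and 1 below both controls. The adjusted p was 0.0854 with DESeq2, 0.0778 in a non-robust fit and 0.0599 with the replicate block. It was 0.165 and 0.121 without E11.5 control replicates 1 and 2, 0.164 without E11.5 mutant replicate 1, 0.141 and 0.114 without E13.5 control replicates 1 and 2, and 0.116 without E13.5 mutant replicate 1.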

How the results depend on the processing

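The E13.5 differences of Nppa, Nppc and Npr1 kept their direction and their call in all 15 alternative fits. Of the 358 member effects recomputed, 322 kept direction and side of the threshold, 19 lost a call, 8 gained one and 9 changed sign, 7 of these in the genotype effect at E11.5, where no member was called. With 1 library left out, that effect ranged from -0.94 to 1.06 for Nppa, -0.92 to 3.96 for Nppc, -0.13 to 0.21 for Npr1 and -0.16 to 0.025 for Npr2. The Nppc interaction ranged from -0.97 to 3.91 and the stage effect on Nppa in mutants from -0.10 to 2.03. Each of these Nppa and Nppc values rests on few E11.5 counts, and the cause of the other sign changes was not tested. The number of members called for the interaction was 1, and 0 in a non-robust fit, 0 with the replicate block, and 0 to 2 with 1 library left out. The 54 genes called at E11.5 in all became 120 when the 4 libraries of the stage were fitted alone, 95 with DESeq2, 92 when the low-count filter was omitted and 20 to 100 with 1 library left out. The 1757 called at E13.5 became 935 to 1770, and the 496 of the interaction 280 to 674, with 1 library left out. The cause was not tested. Pathway counts were recomputed under settings chosen after seeing the data.

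Replicate numbers are shared across groups by label alone. Deviations of same-numbered replicates correlated at -0.065 to 0.045 over the 6 pairs of groups, so the numbers were not taken to pair libraries. The replicate block ended the Npr1 interaction call (edgeR adjusted p = 0.0599) and changed no other call of a member. Depth limits Nppb at both stages and Nppa and Nppc at E11.5, where no library had more than 3 rounded counts.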
